A study of Mus musculus with 6 samples.

Results

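The genes described here encode the subunits of the proteasome and the chaperones that assemble it. They were taken as the rows whose symbol starts with Psma, Psmb, Psmc, Psmd, Psme, Psmf or Psmg followed by a digit, and are described by subcomplex. Pseudogene symbols and the interferon-inducible catalytic subunits Psmb8, Psmb9 and Psmb10 were left out. This gave 47 of the 55335 genes in the table. RNA sequencing had been carried out on mouse bone marrow-derived macrophages (BMDMs), cells grown for 6 days from the marrow of male wildtype C57BL/6 mice aged 6 to 8 weeks. In 3 samples (CM + 4OI) the cells received conditioned medium and, with it, 4-octyl itaconate (4OI) at 200 µM. This compound is itaconate, a metabolite made by activated macrophages, joined to an octyl group that lets it enter cells. In the other 3 samples (CM) they received the conditioned medium alone. In both groups the medium came from pancreatic acinar cells stimulated with 200 nM caerulein for 5 h, was mixed 1:1 and stayed on the macrophages for 4 h. Macrophages without conditioned medium, and macrophages given 4OI without it, were not analysed here, so every level below is a level under conditioned medium.

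The proteasome is the protease that degrades most ubiquitin-tagged proteins of the cell. Its barrel-shaped 20S core is built of alpha rings (Psma) around beta rings (Psmb) that carry the active sites, and the 19S regulator of ATPases (Psmc) and non-ATPase subunits (Psmd) binds, unfolds and feeds in the substrate. Activators of the Psme family can cap the core in place of the 19S regulator, Psmf1 is an inhibitor, and the Psmg proteins help the core to assemble. In macrophages interferons exchange the catalytic beta subunits for inducible ones and raise Psme1 and Psme2, which changes the peptides available for antigen presentation. When proteasome capacity is short, the transcription factor NRF1 (gene Nfe2l1) induces most subunit genes through antioxidant response elements, which the related factor NRF2 can also bind.

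Of the 47 genes, 44 had a mean of at least 1 FPKM (fragments relative to transcript length and library size) over the 6 libraries and were tested. With 4OI added, 18 of these 44 were called higher and 3 were called lower by limma on log2(FPKM + 1) at a Benjamini-Hochberg adjusted p under 0.05. These are 40.9% and 6.82% of the tested proteasome genes, against 19.3% called higher and 13.2% called lower among all 10468 genes tested. The median log2 fold change was 0.11 over the 44 genes and 0.064 over all tested genes, so most proteasome changes were small. Log2 fold changes ran from -0.82 for the activator Psme2b to 0.74 for the 19S subunit Psmd11. The libraries were also rescaled by median-of-ratios size factors, which brings the median of all tested genes to 0.001. In that fit 6 of the 44 proteasome genes were called higher and 3 lower, beside 12.5% and 15.5% of all tested genes. The share called higher was then close to that of all tested genes. Those 6, namely Psmb5, Psmc2, Psmd1, Psmd5, Psmd7 and Psmd11, were called higher under each of the 17 alternative settings tried, and Psme1, Psme2 and Psme2b were called lower under each of them. The setting that adds near-identical copies changes only the values of genes with an added copy, and Psme2 was not added to Psme2b. With replicate number as a block, 19 proteasome genes were called higher and 3 lower, beside 22.3% and 14.5% of all tested genes (36.9% in either direction).

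In 23 of the 44 genes all 3 CM + 4OI libraries lay above all 3 CM libraries, and in 5 they lay below, against 31.2% and 17.8% of all tested genes (49% in either direction). The labels speak of independent cultures and number the samples of each group as biological replicates. Whether a number stands for the same culture in both groups is not given. Same-numbered libraries deviated alike (r = 0.344, 0.427 and 0.185 for numbers 1, 2 and 3), so the 6 libraries may not be independent. The p-values measure the spread between the libraries of a group, without regard to the numbers unless a replicate block is named. In bulk RNA, fewer cells of a type and less RNA per cell cannot be told apart. Estimated depth was 18.0 to 25.3 M fragments (M, mega) per library. All 8 macrophage markers were expressed, and their summed level was 10755 to 11379 FPKM in CM + 4OI and 10518 to 11257 FPKM in CM. Markers of pancreatic acinar cells, the source of the medium, summed to 7.31 to 13.1 FPKM in CM + 4OI and 6.33 to 10.7 FPKM in CM, with 4 of 9 at 1 FPKM or more. Fibroblast and matrix markers summed to 29.8 FPKM in CM + 4OI replicate 2 and 52.9 FPKM in CM replicate 2, and to at most 9.24 FPKM in the other libraries, with 3 of 6 at 1 FPKM or more. Neutrophil markers were also highest in both libraries numbered 2, at 52 FPKM in CM + 4OI and 65.7 FPKM in CM, with 2 of 5 at 1 FPKM or more and Ly6g listed at 0. The part of these markers in the results was not tested, and without replicate 2 of both groups 10 proteasome genes were called higher and 3 lower. The share of all tested genes called in that fit was not computed. B cell, T and NK cell and dendritic cell markers each summed to under 1 FPKM, with Cd3d and Flt3 listed at 0.

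**Figure D1:**
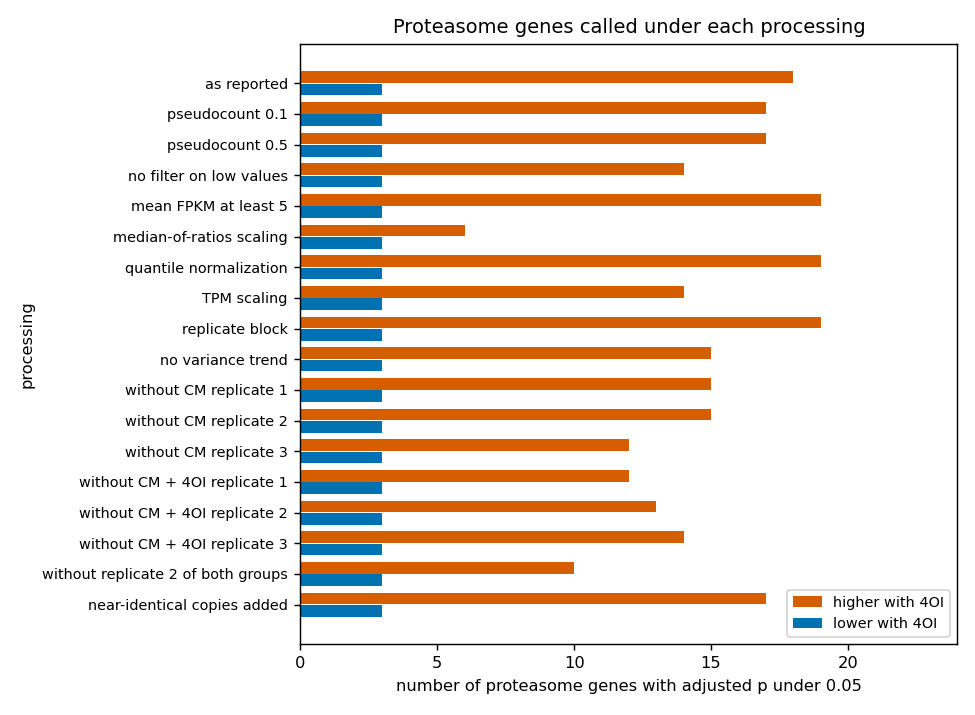
The bars count, for each processing of the data (rows), the proteasome genes with an adjusted p under 0.05 that were higher (orange) or lower (blue) in CM + 4OI than in CM. The count of higher genes was 18 as reported and lay between 6 and 19 under the alternatives, while the count of lower genes was 3 in every row. The share of all tested genes was computed only as reported, under median-of-ratios scaling and with the replicate block.

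Promoter sequences of 4 genes called higher are shown because they hold the antioxidant response element core, the site of NRF1 and NRF2 (Psmb5 and Psmc6), or the core of the site of ETS-family factors (Psmc6, Psmc2 and Psmd11). They are RefSeq upstream sequences of build GRCm38.p6, read from 5′ to 3′ on the strand of the gene and ended at the gene's outermost annotated start, with matched motifs in capitals. Psmb5 is read from chr14:54618023-54618245 on the minus strand, Psmc6 from chr14:45329574-45329787, Psmc2 from chr5:21785025-21785274 and Psmd11 from chr11:80428365-80428614, the last 3 on the plus strand.
Psmb5: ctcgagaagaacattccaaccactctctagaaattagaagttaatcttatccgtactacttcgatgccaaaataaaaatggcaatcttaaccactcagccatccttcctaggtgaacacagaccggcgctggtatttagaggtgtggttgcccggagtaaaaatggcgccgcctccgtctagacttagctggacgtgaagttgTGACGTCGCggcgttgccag
Psmc6: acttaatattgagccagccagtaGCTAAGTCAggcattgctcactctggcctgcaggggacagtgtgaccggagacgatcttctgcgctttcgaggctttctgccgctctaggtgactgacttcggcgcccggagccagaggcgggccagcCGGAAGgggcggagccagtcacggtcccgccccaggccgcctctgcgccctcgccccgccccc
Psmc2: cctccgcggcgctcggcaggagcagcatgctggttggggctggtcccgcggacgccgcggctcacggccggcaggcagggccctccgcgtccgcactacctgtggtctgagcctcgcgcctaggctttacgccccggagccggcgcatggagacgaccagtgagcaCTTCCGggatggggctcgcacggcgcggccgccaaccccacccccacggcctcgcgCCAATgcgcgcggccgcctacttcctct
Psmd11: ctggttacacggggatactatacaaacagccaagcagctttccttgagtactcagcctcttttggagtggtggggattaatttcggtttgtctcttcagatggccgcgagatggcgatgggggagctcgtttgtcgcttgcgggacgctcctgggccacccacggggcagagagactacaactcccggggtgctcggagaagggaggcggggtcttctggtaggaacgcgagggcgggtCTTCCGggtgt

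The element core TGACNNNGC lay 47 to 39 bases before the RefSeq start of Psmb5 on the gene's strand, and 227 to 219 bases before that of Psmc6 on the other strand. The ETS core CGGAAG, written CTTCCG where it is on the other strand, lay 11 to 6 bases before the start of Psmd11, 99 to 94 before that of Psmc6 and 84 to 79 before that of Psmc2. Psmc2 also held a CCAAT box 28 to 24 bases before its start.

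Promoter entries were found for 39 of the 47 genes, and motifs were searched on both strands of the 250 bases before the start. The element core TGACNNNGC was present in 5 of the 39 (12.8%), against 11.5% of the 27025 genes of the promoter table. Those 5 were Psmb5, Psmb6, Psmc6, Psmd9 and Psmd12, of which Psmb5 and Psmc6 were called higher. CCAAT was present in 14 of the 39 (35.9%), against 37.5% of the whole table. The ETS core CGGAAG was present in 20 of the 39 (51.3%), against 15.3% of the whole table. The whole table also holds genes not expressed in these cells, and the share among the expressed genes was not computed. The ETS core was found in 12 of 17 Psmc and Psmd genes (70.6%), with Psmc3ip, which also held it, left out. It was found in 4 of 12 Psma and Psmb genes (33.3%), among them the untested Psmb11. Among genes with an entry, 10 of the 16 called higher held it (62.5%), as did 8 of the 18 not called (44.4%) and 0 of the 3 called lower. None of the 3 genes called lower held any of these motifs. Matches of different motifs overlapped in 0 of the 39 genes, and a match is a match of letters, not a measured site.

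The 19S regulator held most of the higher calls. Of its 20 tested genes, which include the chaperones Psmd5, Psmd9 and Psmd10, 13 (65%) were called higher and none lower, beside 19.3% and 13.2% of all tested genes. The median log2 fold change was 0.19. In 15 of the 20 (75%) the groups did not overlap, each with CM + 4OI higher, beside 31.2% of all tested genes. Their summed level was 662, 629 and 621 FPKM in CM + 4OI replicates 1, 2 and 3, against 551, 564 and 546 FPKM in CM replicates 1, 2 and 3. The lowest CM + 4OI sum thus lay above the highest CM sum. The means were 637 ± 22.1 FPKM in CM + 4OI and 554 ± 9.37 FPKM in CM (SD, n = 3 each), a ratio of 1.15. Under median-of-ratios scaling 5 of the 20 were called higher, beside 12.5% of all tested genes, with a median of 0.12.

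Psmd11, on chromosome 11 (80428615 to 80473248, plus strand, GRCm38), had the highest fold of all the proteasome genes tested. Psmd11 is a lid subunit that clamps the 19S regulator to the core. Its level was 17.4, 16.0 and 15.7 FPKM in CM + 4OI, against 8.36, 10.5 and 9.52 FPKM in CM. Every CM + 4OI library was above every CM library, and the spread within each group was small beside the gap. The means of Psmd11 were 16.4 ± 0.932 FPKM in CM + 4OI and 9.46 ± 1.07 FPKM in CM (SD, n = 3 each), and it rose by 0.74 ± 0.084 on the log2 scale (SE, limma adjusted p = 0.00105). That change ranked at percentile 97.7 among all tested genes. Short stretches of the Psmd11 transcript match many other transcripts, among them Slc3a2 (96.2% identity over 158 nt, mean 149.5 FPKM over the 6 libraries). Reads can be shared there, and the part of this in the level of Psmd11 was not tested.

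Psmd5 is a chaperone that helps the ATPase base of the 19S regulator to form and is not part of the finished particle. It lies on chromosome 2 (34849734 to 34874968, minus strand) and was among the lower-expressed genes of the group. Its level was 5.9, 7.21 and 7.23 FPKM in CM + 4OI, against 3.66, 4.22 and 4.4 FPKM in CM, without overlap. Psmd5 averaged 6.78 ± 0.758 FPKM in CM + 4OI and 4.09 ± 0.384 FPKM in CM, and rose by 0.61 ± 0.093 on the log2 scale (limma adjusted p = 0.00357). The other chaperones of the base were not called. Psmd10 (gankyrin) had 12.8, 11.8 and 12.3 FPKM in CM + 4OI and 13.2, 12.7 and 14.5 FPKM in CM, with a log2 fold change of -0.12 (adjusted p = 0.173). Psmd9 averaged 2.72 FPKM in CM + 4OI and 2.68 FPKM in CM, with a log2 fold change of 0.02 (adjusted p = 0.886), and 25.5% of its exon length overlaps Gm26745. The difference between Psmd5 and these chaperones was not tested.

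Psmd1 is the large scaffold subunit at the base of the 19S regulator. It lies on chromosome 1 (86064387 to 86139151, plus strand). Its level was 32.5, 30.8 and 31.7 FPKM in CM + 4OI, against 21.7, 21.6 and 21.3 FPKM in CM. The CM libraries were almost alike, and all 3 CM + 4OI libraries stood well above them. Psmd1 averaged 31.7 ± 0.826 FPKM in CM + 4OI and 21.6 ± 0.214 FPKM in CM, a ratio of 1.47, and rose by 0.53 ± 0.038 on the log2 scale (limma adjusted p = 0.000163). Psmd2 is the other large scaffold of the base. Its level was 64.7, 65.3 and 64.7 FPKM in CM + 4OI, against 58.2, 61.5 and 58.8 FPKM in CM. The groups were separate and the CM + 4OI libraries almost alike. It averaged 64.9 ± 0.362 FPKM in CM + 4OI and 59.5 ± 1.75 FPKM in CM, with a log2 fold change of 0.12 ± 0.037 (adjusted p = 0.0459), and its call held in 7 of the 17 alternatives.

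**Figure D2:**
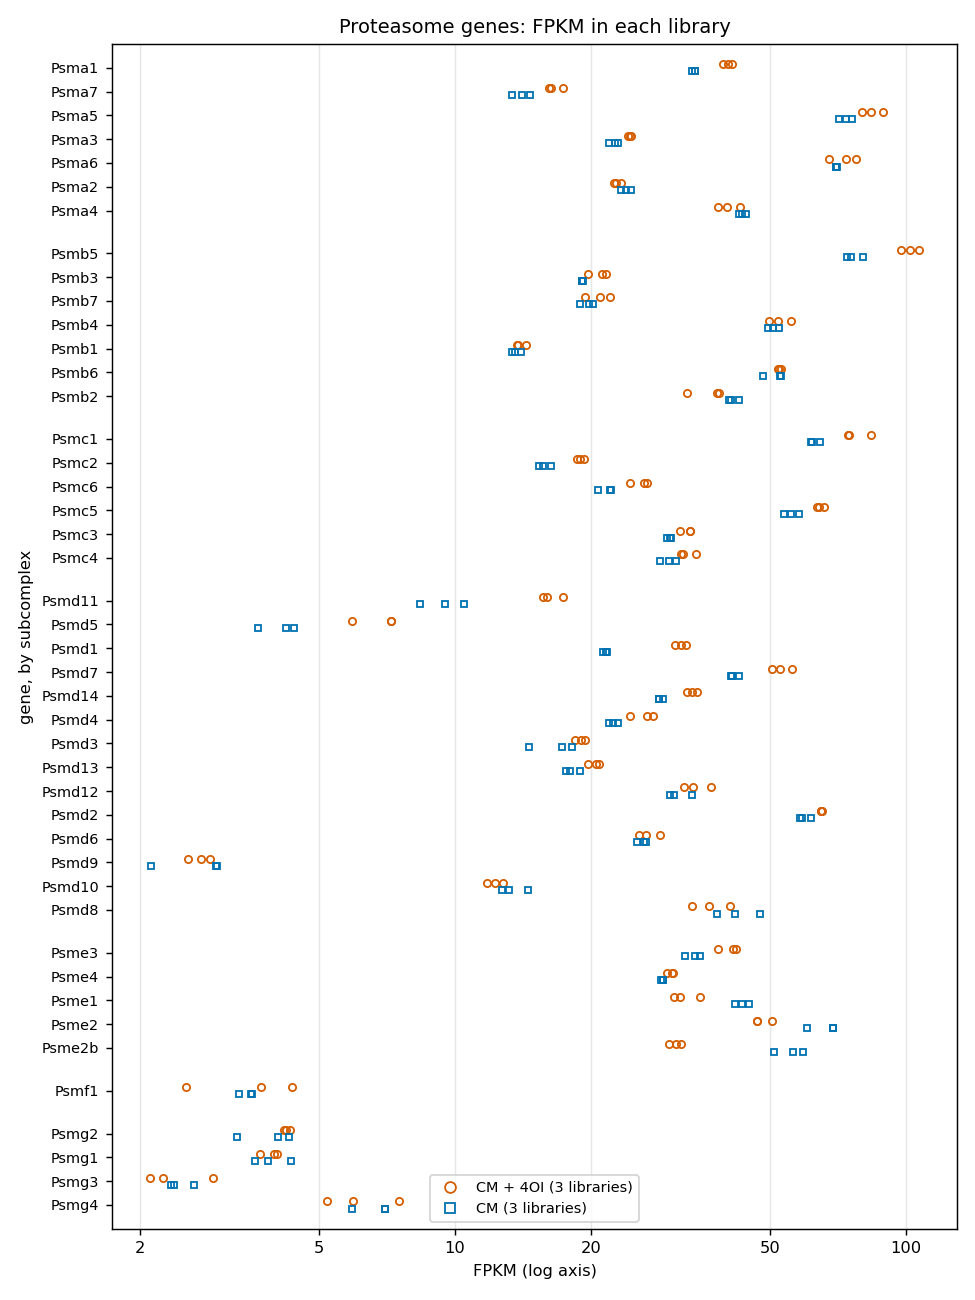
Each row is 1 of the 44 tested genes, grouped by subcomplex, and each symbol is the FPKM (log axis) of 1 library, with circles for CM + 4OI above squares for CM. The CM + 4OI circles of Psmd11 (15.7 to 17.4 FPKM) and Psmd1 (30.8 to 32.5 FPKM) lie to the right of their CM squares, and those of Psme2b (29.8 to 31.8 FPKM) lie to the left.

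Psmd7 and Psmd14 form the deubiquitinating pair of the lid, in which Psmd14 is the enzyme that cuts the ubiquitin chain off the substrate. Psmd7 is on chromosome 8 (107580381 to 107588464, minus strand). It had 55.8, 52.7 and 50.4 FPKM in CM + 4OI, against 41.2, 42.6 and 41.0 FPKM in CM, with no overlap. Psmd7 rose by 0.34 ± 0.048 on the log2 scale (SE, limma adjusted p = 0.00255). Psmd14 had 34.4, 32.7 and 33.5 FPKM in CM + 4OI, against 29.0, 28.3 and 28.3 FPKM in CM, again without overlap. Its log2 fold change was 0.23 ± 0.038 (adjusted p = 0.00518), and 16 of the 17 alternatives called it.

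The ubiquitin receptor Psmd4 and the lid subunit Psmd13 were the remaining called genes among the non-ATPase subunits. Psmd4 had 26.7, 27.5 and 24.5 FPKM in CM + 4OI, against 23.0, 22.4 and 22.0 FPKM in CM, with a log2 fold change of 0.21 (limma adjusted p = 0.0229) that held in 11 of the 17 alternatives. Psmd13 had 20.9, 20.6 and 19.7 FPKM in CM + 4OI, against 17.6, 18.9 and 18.0 FPKM in CM, with a log2 fold change of 0.16 (adjusted p = 0.04) that held in 7 of them. For both genes the CM + 4OI libraries lay above the CM libraries, but the gap between groups was smaller than the range within one of them, and 10.1% of the exon length of Psmd13 overlaps Sirt3 on the other strand.

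The lid subunits Psmd3, Psmd6, Psmd8 and Psmd12 were not called. Psmd8 had the lowest log2 fold change among them, at -0.19 (adjusted p = 0.186), with 40.8, 36.6 and 33.6 FPKM in CM + 4OI, against 41.8, 47.5 and 38.2 FPKM in CM. Its groups overlapped. Psmd3 had 19.4, 19 and 18.5 FPKM in CM + 4OI, against 17.3, 18.2 and 14.6 FPKM in CM, with a log2 fold change of 0.18 (adjusted p = 0.136). Its groups did not overlap, and CM replicate 3 stood below the other CM libraries. Psmd6 had 28.5, 25.6 and 26.6 FPKM in CM + 4OI, against 25.4, 26.3 and 26.5 FPKM in CM (log2 fold change 0.04, adjusted p = 0.558). Psmd12 had 36.9, 32.3 and 33.7 FPKM in CM + 4OI, against 33.5, 30.0 and 30.6 FPKM in CM (log2 fold change 0.13, adjusted p = 0.195). In Psmd12 each CM + 4OI library was above the CM library of the same number, although the groups overlapped. With replicate number as a block Psmd12 reached an adjusted p of 0.0365.

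The 6 ATPases, which form the ring that unfolds the substrate, had log2 fold changes within a narrow range. All 6 had CM + 4OI libraries above all CM libraries (31.2% of all tested genes) and 5 were called higher (19.3% of all tested genes), and the values ran from 0.13 to 0.3. Under median-of-ratios scaling 1 of the 6, Psmc2, was called higher, beside 12.5% of all tested genes. In that fit Psmc1, Psmc5 and Psmc6 had limma adjusted p of 0.0628, 0.093 and 0.0664. Their summed level was 263, 248 and 246 FPKM in CM + 4OI, against 214, 216 and 216 FPKM in CM, a ratio of 1.17. Psmc1 had 83.6, 74.3 and 74.7 FPKM in CM + 4OI, against 61.5, 62.0 and 64.4 FPKM in CM, and rose by 0.3 ± 0.056 on the log2 scale (limma adjusted p = 0.00773). Its 3 CM libraries were close to each other, and CM + 4OI replicate 1 was the highest library.

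Psmc2, on chromosome 5 (21785283 to 21803787, plus strand), was the ATPase gene whose call held in all 17 alternatives. It had 19.3, 18.9 and 18.7 FPKM in CM + 4OI, against 15.4, 16.3 and 15.7 FPKM in CM, and rose by 0.25 ± 0.041 (limma adjusted p = 0.00447). Psmc6 had 26.7, 26.2 and 24.4 FPKM in CM + 4OI, against 20.8, 22.1 and 22.2 FPKM in CM, with a log2 fold change of 0.24 (adjusted p = 0.0137). Psmc5 had 66.0, 63.7 and 64.1 FPKM in CM + 4OI, against 55.6, 57.9 and 53.8 FPKM in CM, with a log2 fold change of 0.21 (adjusted p = 0.0102). In all 3 of these genes the groups were separate.

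The remaining ATPases lay at the edge of the threshold. Psmc3 had 33.3, 33.3 and 31.6 FPKM in CM + 4OI, against 30.1, 29.6 and 30.0 FPKM in CM, with a log2 fold change of 0.13 and a limma adjusted p of 0.04997. Its call held in 2 of the 17 alternatives, and 8.2% of its exon length overlaps Slc39a13 on the other strand. Psmc4 had 34.2, 31.8 and 32.1 FPKM in CM + 4OI, against 31.0, 28.5 and 29.8 FPKM in CM, with the same log2 fold change of 0.13 and an adjusted p of 0.0917. With replicate number as a block, Psmc3 had an adjusted p of 0.0518 and Psmc4 one of 0.0373.

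**Figure D3:**
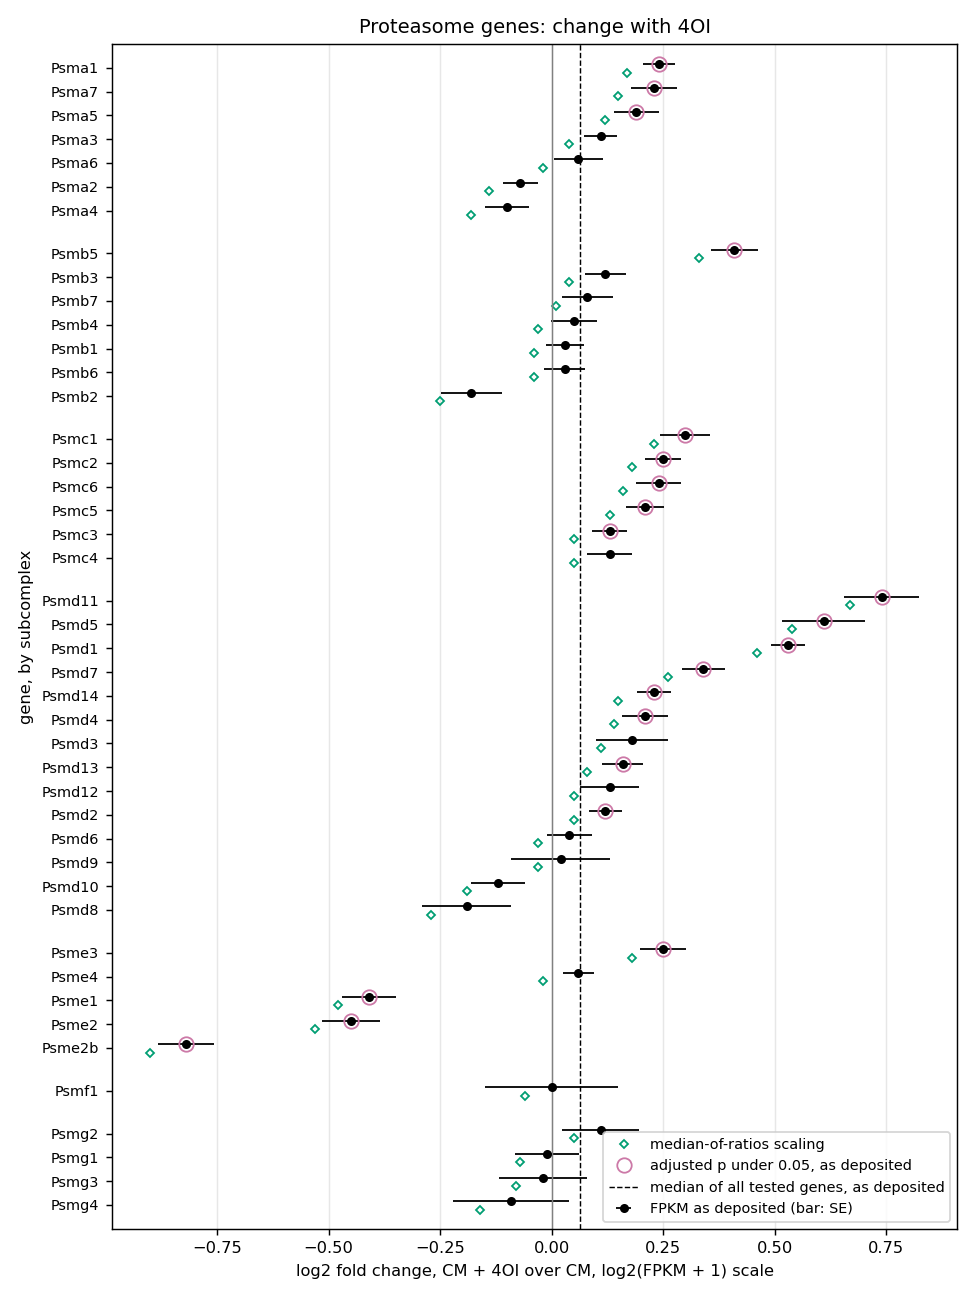
Black points are log2 fold changes of CM + 4OI over CM on the log2(FPKM + 1) scale with their SE, ringed where the adjusted p was under 0.05, green diamonds are the same after median-of-ratios scaling, and the dashed line is the median of all tested genes (0.064). Psmd11 at 0.74 and Psme2b at -0.82 are the extremes, and the diamonds lie to the left of the points.

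The 20S core held few of the calls. Of the 14 tested alpha and beta genes, 4 were called higher (28.6%, beside 19.3% of all tested genes) and none lower, with a median log2 fold change of 0.07. Under median-of-ratios scaling 1 of the 14 was called higher, beside 12.5% of all tested genes, and the median was -0.01. Their summed level was 626, 586 and 592 FPKM in CM + 4OI, against 552, 556 and 553 FPKM in CM, a ratio of 1.09. The sums of the groups did not overlap in FPKM as deposited, but they did after division by the median-of-ratios size factors. The difference between the core and the 19S regulator was not tested.

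Psmb5, which carries the chymotrypsin-like activity, was the only beta gene called, and it was also the core gene with the highest fold. It lies on chromosome 14 (54614119 to 54618022, minus strand). Its level was 107, 97.4 and 102 FPKM in CM + 4OI, against 75.7, 74.1 and 80.2 FPKM in CM. All 3 CM + 4OI libraries lay above the CM libraries. Psmb5 averaged 102 ± 5 FPKM in CM + 4OI and 76.7 ± 3.21 FPKM in CM (SD, n = 3 each), a ratio of 1.33, and rose by 0.41 ± 0.052 on the log2 scale (limma adjusted p = 0.00167). Its transcript is 98.9% identical to the copy Gm3375, which was listed at 3.78 FPKM in CM + 4OI and 2.62 FPKM in CM, and adding the copy left the log2 fold change at 0.41.

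The other catalytic beta genes were not called. Psmb6, the caspase-like subunit, had 52.2, 52.8 and 52.3 FPKM in CM + 4OI, against 48.3, 52.9 and 52.5 FPKM in CM, with a log2 fold change of 0.03 ± 0.046 (adjusted p = 0.623). Psmb7, the trypsin-like subunit, had 22.1, 21 and 19.4 FPKM in CM + 4OI, against 19.8, 18.9 and 20.2 FPKM in CM, with a log2 fold change of 0.08 ± 0.057 (adjusted p = 0.325). In both genes the groups overlapped, and 11.8% of the exon length of Psmb7 overlaps Nek6 on the other strand. Among the structural beta subunits Psmb2 was the lowest relative to CM, with 38.6, 32.8 and 38.2 FPKM in CM + 4OI, against 42.6, 41.0 and 40.5 FPKM in CM. Its groups did not overlap, but the log2 fold change of -0.18 ± 0.069 did not pass the test (adjusted p = 0.0938). Psmb3 had 21.6, 21.2 and 19.7 FPKM in CM + 4OI, against 19.2, 19.1 and 19.1 FPKM in CM (log2 fold change 0.12, adjusted p = 0.101), also without overlap. Psmb1 had 13.7, 14.4 and 13.8 FPKM in CM + 4OI, against 13.4, 14.0 and 13.6 FPKM in CM (log2 fold change 0.03, adjusted p = 0.618). Psmb4 had 55.6, 49.8 and 52.2 FPKM in CM + 4OI, against 49.4, 52.3 and 50.7 FPKM in CM (log2 fold change 0.05, adjusted p = 0.54). Both overlapped between groups.

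Among the alpha subunits, which form the gated outer rings, Psma1, Psma5 and Psma7 were called higher and 4 genes were not called. Psma1 had 40.3, 39.3 and 41.1 FPKM in CM + 4OI, against 34.0, 34.0 and 33.6 FPKM in CM, and a log2 fold change of 0.24 ± 0.036 (limma adjusted p = 0.00314). The gap was several times the spread of either group. Psma7 had 17.4, 16.3 and 16.2 FPKM in CM + 4OI, against 14.1, 14.7 and 13.4 FPKM in CM, with a log2 fold change of 0.23 (adjusted p = 0.0176). Psma5 had 88.8, 80.1 and 83.9 FPKM in CM + 4OI, against 75.8, 73.6 and 71.0 FPKM in CM, with a log2 fold change of 0.19 (adjusted p = 0.0284). None of these calls held under median-of-ratios scaling, where Psma1 had an adjusted p of 0.0561 and Psma5 one of 0.267.

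The alpha genes that were not called pointed both ways. Psma4 had 42.8, 40.2 and 38.3 FPKM in CM + 4OI, against 43.4, 44.2 and 42.6 FPKM in CM, with a log2 fold change of -0.1 (adjusted p = 0.165). Psma2 had 23.3, 22.8 and 22.5 FPKM in CM + 4OI, against 24, 24.6 and 23.3 FPKM in CM, with one of -0.07 (adjusted p = 0.252). The groups of Psma4 overlapped and those of Psma2 came within rounding of each other at 23.3 FPKM without crossing. Psma6 had 77.7, 73.6 and 67.7 FPKM in CM + 4OI, against 70.3, 70.1 and 70.0 FPKM in CM (log2 fold change 0.06, adjusted p = 0.487). Psma3 had 24.6, 24.2 and 24.5 FPKM in CM + 4OI, against 22.0, 23.0 and 22.6 FPKM in CM (log2 fold change 0.11, adjusted p = 0.0636). The groups of Psma3 were separate. Its transcript is 100% identical over 665 nt to Gm13835, listed at 12.9 FPKM in CM + 4OI and 13.3 FPKM in CM, so reads can be shared between them. With that copy added the log2 fold change of Psma3 was 0.06.

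**Figure D4:**
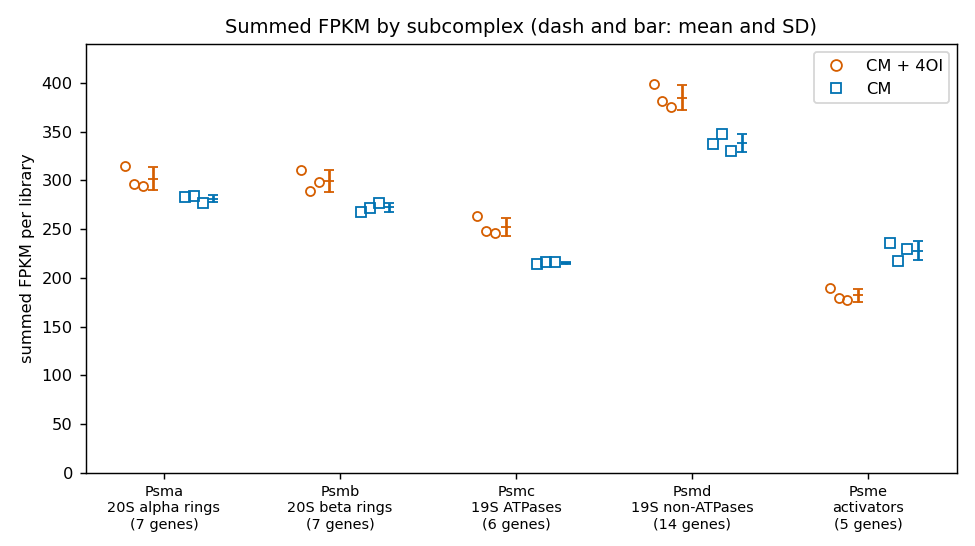
Each symbol is the summed FPKM of a subcomplex in 1 library, with CM + 4OI as circles and CM as squares, and the dash with its bar gives the mean and SD of 3 libraries. In FPKM as deposited the 2 groups are separate in all 5 subcomplexes. CM + 4OI is lower in Psme (182 ± 6.69 FPKM in CM + 4OI, 228 ± 9.65 FPKM in CM) and higher in the other 4.

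The interferon-regulated activator genes fell. Psme1 and Psme2 encode the alpha and beta subunits of the PA28 cap and lie close together on chromosome 14, Psme1 at 55578123 to 55581529 on the plus strand and Psme2 at 55587441 to 55591113 on the minus strand. Psme1 had 35.0, 30.6 and 31.6 FPKM in CM + 4OI, against 44.8, 41.9 and 43.4 FPKM in CM. It fell by 0.41 on the log2 scale (SE 0.06, limma adjusted p = 0.00286). Psme2 had 50.5, 46.8 and 46.7 FPKM in CM + 4OI, against 68.9, 60.5 and 69.0 FPKM in CM, and fell by 0.45 (SE 0.065, adjusted p = 0.00273). In both genes every CM + 4OI library was below every CM library.

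Psme2b, a second Psme2 gene on chromosome 11 (48945354 to 48946190, minus strand), had the lowest log2 fold change of all the proteasome genes tested. It had 31.8, 29.8 and 31.0 FPKM in CM + 4OI, against 59.2, 51.0 and 56.3 FPKM in CM, a ratio of 0.556, and fell by 0.82 on the log2 scale (SE 0.062, limma adjusted p = 0.0002). The transcripts of Psme2 and Psme2b are 99.4% identical over 794 nt. Reads can be split between them in either direction, so the value of each is uncertain, and the summed pair had a log2 fold change of -0.62 (adjusted p = 0.000657).

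Psme3, the nuclear PA28 gamma subunit that interferon is not known to induce, rose. It lies on chromosome 11 (101316213 to 101323537, plus strand) and had 42.0, 41.3 and 38.4 FPKM in CM + 4OI, against 34.1, 35.0 and 32.4 FPKM in CM. Its log2 fold change was 0.25 ± 0.051 (limma adjusted p = 0.011), and its call was lost under median-of-ratios scaling (adjusted p = 0.0521) and without replicate 2 of both groups. Psme4 (PA200) had 30.3, 30.4 and 29.5 FPKM in CM + 4OI, against 29.0, 28.7 and 29.0 FPKM in CM, with a log2 fold change of 0.06 (adjusted p = 0.272). The groups of Psme4 did not overlap, yet the gap was 1.04-fold.

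The inhibitor and the core assembly chaperones were expressed at low levels and were not called. Psmf1 had 3.72, 2.53 and 4.35 FPKM in CM + 4OI, against 3.32, 3.53 and 3.54 FPKM in CM. Its CM + 4OI libraries spread widely around the CM libraries (log2 fold change 0.0, adjusted p = 0.994). Psmg1 and Psmg2 form one pair of core chaperones. Psmg1 had 4.04, 3.96 and 3.7 FPKM in CM + 4OI, against 4.33, 3.84 and 3.61 FPKM in CM (log2 fold change -0.01, adjusted p = 0.957). Psmg2 had 4.3, 4.22 and 4.18 FPKM in CM + 4OI, against 3.28, 4.28 and 4.05 FPKM in CM (log2 fold change 0.11, adjusted p = 0.379). Psmg3 and Psmg4 form the other pair. Psmg3 had 2.25, 2.9 and 2.11 FPKM in CM + 4OI, against 2.34, 2.64 and 2.38 FPKM in CM (log2 fold change -0.02, adjusted p = 0.894). Psmg4 had 7.53, 5.2 and 5.93 FPKM in CM + 4OI, against 5.91, 7.01 and 7.01 FPKM in CM (log2 fold change -0.09, adjusted p = 0.624). All 4 overlapped between groups. The summed level of the Psmg genes was 18.1, 16.3 and 15.9 FPKM in CM + 4OI, against 15.9, 17.8 and 17.1 FPKM in CM, with overlapping groups and a ratio of 0.992. Pomp, the maturation factor of the core, had 16.4, 16.4 and 16.8 FPKM in CM + 4OI, against 15.9, 15.8 and 16.4 FPKM in CM (log2 fold change 0.04, adjusted p = 0.464).

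The remaining 3 of the 47 genes were below the filter. Psma8, the alpha subunit of the testis proteasome, had 0.243, 0.483 and 0.19 FPKM in CM + 4OI, against 0.379, 0.318 and 0.259 FPKM in CM. Psmb11, the catalytic subunit of the thymus, was listed at 0 in all 6 libraries. Psmc3ip had 0.706, 0.478 and 0.342 FPKM in CM + 4OI, against 0.696, 0.618 and 0.458 FPKM in CM. Its symbol matches the pattern, but it encodes a partner of meiotic recombination proteins and not a proteasome subunit.

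Each constitutive catalytic gene can be set against the inducible gene whose product replaces it. The 3 inducible genes were all called lower, beside 13.2% of all tested genes. Psmb8 had 28.6, 25.1 and 24.3 FPKM in CM + 4OI, against 40.1, 37.2 and 38.8 FPKM in CM (log2 fold change -0.56, limma adjusted p = 0.00146). Psmb9 had 6.51, 6.07 and 6.91 FPKM in CM + 4OI, against 13.3, 11.9 and 12.3 FPKM in CM (log2 fold change -0.85, adjusted p = 0.000198). Psmb10 had 38, 32.8 and 32.9 FPKM in CM + 4OI, against 63.8, 64.6 and 65.2 FPKM in CM (log2 fold change -0.89, adjusted p = 0.000158). In all 3 genes every CM + 4OI library lay below every CM library, beside 17.8% of all tested genes. On the other strand Gm20496 overlaps 14.7% of the exon length of Psmb8, and Tap1 overlaps 5.8% of that of Psmb9.

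FPKM is per transcript length, but the lengths used are not given. The longest annotated transcripts have 899 nt for Psmb5 and 1907 nt for Psmb8, and 966 nt for Psmb6 and 2884 nt for Psmb9. They have 2849 nt for Psmb7 and 1311 nt for Psmb10. The size of a ratio within a library is therefore uncertain, while each ratio can be compared between groups. The level ratio of Psmb5 to Psmb8 was 3.75, 3.88 and 4.19 in CM + 4OI, against 1.89, 1.99 and 2.07 in CM. For Psmb6 to Psmb9 it was 8.01, 8.69 and 7.57 in CM + 4OI, against 3.63, 4.46 and 4.26 in CM. For Psmb7 to Psmb10 it was 0.581, 0.641 and 0.591 in CM + 4OI, against 0.311, 0.292 and 0.31 in CM. None of the 3 pairs overlapped between groups. The listed FPKM of the inducible Psmb10 stayed above that of its constitutive partner in all 6 libraries, subject to the lengths used.

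On the log2 scale of FPKM + 1 the ratio was 0.97 higher in CM + 4OI for Psmb5 over Psmb8, 0.88 higher for Psmb6 over Psmb9 and 0.97 higher for Psmb7 over Psmb10. Each pair had an exact two-sided permutation p of 0.1 (n = 3 each), which is the smallest that 3 against 3 allows, and 0.1 after Benjamini-Hochberg adjustment over the 3 pairs. No model-based test of the ratios was run. Of the constitutive partners Psmb5 passed the limma test and Psmb6 and Psmb7 did not, while all 3 inducible genes passed it.

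**Figure D5:**
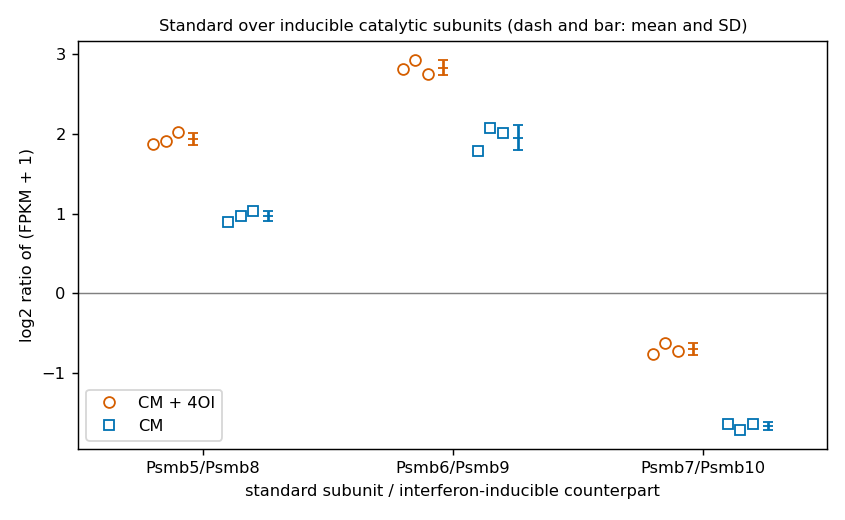
Each symbol is the log2 ratio of FPKM + 1 between a standard catalytic subunit and its inducible counterpart in 1 library, with circles for CM + 4OI, squares for CM and the mean and SD beside them. The ratio of Psmb5 to Psmb8 averaged 1.94 ± 0.079 in CM + 4OI and 0.97 ± 0.066 in CM (SD, n = 3 each), and no pair overlaps between groups.

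Genes that work beside the proteasome were read from lists of the same pathway. The lists were drawn up with earlier results of these data known, so their counts cannot test for an excess over all genes. Of 11 other subunits and assembly or import factors, 6 were called higher and none lower, beside 19.3% and 13.2% of all tested genes, with a median log2 fold change of 0.19. Under median-of-ratios scaling 4 of the 11 were called higher, beside 12.5% of all tested genes. Zfand2a (AIRAP), which binds the 19S regulator under proteotoxic stress, had 45.8, 41.0 and 42.9 FPKM in CM + 4OI, against 28.5, 27.8 and 29.2 FPKM in CM (log2 fold change 0.58, limma adjusted p = 0.000354). Usp14, a deubiquitinase bound to Psmd2, had 11.1, 11.5 and 11 FPKM in CM + 4OI, against 9.04, 8.98 and 9.01 FPKM in CM (log2 fold change 0.29, adjusted p = 0.00258). In both genes the groups were separate. The thioredoxin-like 19S partner Txnl1 averaged 12.6 FPKM in CM + 4OI and 9.17 FPKM in CM (log2 fold change 0.42, adjusted p = 0.00168).

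NRF1 is made as a membrane-bound precursor that the AAA ATPase p97 (gene Vcp) extracts, the glycanase Ngly1 deglycosylates and the protease Ddi2 cuts. Nfe2l1, which encodes it, had 8.54, 10.6 and 10.3 FPKM in CM + 4OI, against 7.58, 8.03 and 7.27 FPKM in CM. The groups did not overlap, and the log2 fold change was 0.32 (limma adjusted p = 0.0299), a call that held in 11 of the 17 alternatives. Ddi2 averaged 10.4 ± 0.491 FPKM in CM + 4OI and 8.87 ± 0.0763 FPKM in CM (log2 fold change 0.21, adjusted p = 0.0164). Ngly1 averaged 2.63 FPKM in CM + 4OI and 2.74 FPKM in CM (adjusted p = 0.749). Nfe2l2, which encodes NRF2, was called lower, at 53.4, 54.8 and 54.0 FPKM in CM + 4OI, against 58.9, 59.7 and 59.9 FPKM in CM (log2 fold change -0.13, adjusted p = 0.0249). The call of Nfe2l2 held in 9 of the 17 alternatives and was lost under quantile normalization (log2 fold change -0.04, adjusted p = 0.454), while that of Ddi2 held in 12. Of the 9 genes in the list of NRF1, its processing and its partners, 4 were called higher and 1, Nfe2l2, lower, beside 19.3% and 13.2% of all tested genes.

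Of 14 shuttle factors and p97 cofactors, 10 were called higher and none lower, beside 19.3% and 13.2% of all tested genes (median log2 fold change 0.26). Under median-of-ratios scaling 7 of the 14 were called higher, beside 12.5% of all tested genes. Vcp and Rad23b are counted as called higher in this list and in the NRF1 list. Vcp had 120, 125 and 121 FPKM in CM + 4OI, against 83.6, 88.8 and 84.4 FPKM in CM (log2 fold change 0.51, limma adjusted p = 0.000261). The p97 cofactor Nploc4 averaged 28.6 FPKM in CM + 4OI and 21 FPKM in CM (log2 fold change 0.43, adjusted p = 0.00139). The shuttle Ubqln2 averaged 13.2 FPKM in CM + 4OI and 9.08 FPKM in CM (log2 fold change 0.5, adjusted p = 0.00702). Shuttles carry ubiquitinated proteins to the 19S regulator. Rad23b, another of them, averaged 27.8 FPKM in CM + 4OI and 21.8 FPKM in CM (log2 fold change 0.33, adjusted p = 0.00381).

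Of 6 genes for ubiquitin and its E1 enzymes, 1 (16.7%, beside 19.3% of all tested genes) was called higher. It was Ubb, at 293 FPKM in CM + 4OI and 259 FPKM in CM (log2 fold change 0.18, limma adjusted p = 0.0124), and the call was lost under median-of-ratios scaling (adjusted p = 0.196) and without replicate 2 of both groups (adjusted p = 0.092). Among 4 adaptors that bring ubiquitinated cargo to autophagy, 3 were called higher (75%, beside 19.3% of all tested genes). Sqstm1 (p62), itself an NRF2 target, had 515, 453 and 477 FPKM in CM + 4OI, against 165, 151 and 165 FPKM in CM, a ratio of 3 (log2 fold change 1.58, adjusted p = 2.24e-05). That change was above that of every proteasome gene tested. The co-chaperone Bag3 averaged 37.1 FPKM in CM + 4OI and 26.0 FPKM in CM (log2 fold change 0.5, adjusted p = 0.000982), and Nbr1 12.4 FPKM in CM + 4OI and 9.53 FPKM in CM (log2 fold change 0.34, adjusted p = 0.0102). As a scale for these sizes, 7 NRF2 target genes, chosen because they are known to respond, had log2 fold changes of 2.05 to 4.01. All 7 were called higher, beside 19.3% of all tested genes, which their choice makes no test of NRF2. Gclc, the catalytic subunit of glutathione synthesis, had 193, 201 and 223 FPKM in CM + 4OI, against 11.3, 12.7 and 11.3 FPKM in CM.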

How the data were processed

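The deposited table holds FPKM per gene and library, calculated by the authors, with 1 column for each of the 6 libraries. Per the labels' protocols, total RNA was sequenced as paired-end reads on an Illumina instrument, and per the submitters' processing notes FastQC 0.11.2 and the mouse build mm10 were used. Which aligner, quantifier, annotation and strandedness were used is not given in the sources used here. Where exons of opposite strands overlap, their reads may therefore be mixed. Of the gene IDs, 55154 (99.7%) occur in GENCODE M21 (GRCm38, the assembly of mm10), which gave coordinates and exon overlaps. Near-identical transcripts were found with BLAST+ 2.17.0 at 95% identity or more over at least 150 nt. Depth is an estimate, because FPKM values were not whole multiples of a read throughout and counts were not recovered.

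Genes whose FPKM averaged 1 or more over the libraries were tested with limma 3.58.1 (R 4.3.3) on log2(FPKM + 1), which understates changes of low genes, with a variance trend and Benjamini-Hochberg adjustment over all 10468 genes. The tests were two-sided and the script was tested on simulated data. Fold changes are CM + 4OI over CM, and errors are SD over libraries or SE of the log2 fold change. Alternatives varied the pseudocount, filter, scaling, variance trend, replicate block, replicates and near-identical copies, the last chosen after seeing the data. The rule for named genes took the catalytic subunits, the extremes and the most abundant gene of each subcomplex, all Psme, Psmf and Psmg genes and every gene called lower, and from the related lists Psmb8, Psmb9, Psmb10, Pomp, Nfe2l1 and up to 3 called genes with the largest changes in each. Other genes were added. The genes, lists and motifs were chosen with earlier results of these data known, and the added genes were picked after their values were seen.

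Same-numbered libraries of the groups deviated alike (r = 0.344, 0.427 and 0.185 for numbers 1, 2 and 3, against at most 0.0262 between different numbers), so the pairing was tried as a replicate block. The labels call the numbers biological replicates but do not say whether a number stands for the same culture in both groups. Promoters are 250 bases before the RefSeq start. Tables and plots used Python 3.11.15, pandas 2.3.3, numpy 2.4.6 and matplotlib 3.10.9.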

Additional observations from a re-analysis of the deposited data

How the results depend on the processing

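Under median-of-ratios scaling the proteasome genes called higher numbered 6 in place of 18, beside 12.5% in place of 19.3% of all tested genes. They held 0 Psma, 1 Psmc, 4 Psmd and 0 Psme genes, and 0 genes of the ubiquitin list were called higher. On that scaling the log2 differences of the summed FPKM, CM + 4OI minus CM, were 0.02 for Psma, 0.06 for Psmb, 0.15 for Psmc, 0.11 for Psmd and -0.4 for Psme. The scaled sums of Psma and of Psmb overlapped between groups. Without replicate 2 of both groups 10 were called higher, with 1 Psma, 3 Psmc, 5 Psmd and 0 Psme genes, and the NRF1 list had 1 gene higher and 0 lower and the shuttle list 6 higher. Fewer libraries entered that fit, and the share of all tested genes called in it was not computed. Quantile normalization gave 0 lower genes in the NRF1 list and 2 higher in the ubiquitin list, and the fit with no variance trend gave 0 lower in the NRF1 list. Shares of all tested genes were not computed for these settings, and the cause of these changes was not tested. With the replicate block, which pairs same-numbered libraries, 19 proteasome genes were called higher and 3 lower, with Psmc4 and Psmd12 gained and Psmc3 lost, and the ubiquitin list had 2 higher.

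Leaving out 1 library at a time gave 12 to 15 proteasome genes called higher, with 1 to 3 in Psma, 3 to 4 in Psmc and 5 to 7 in Psmd. The NRF1 list had 2 to 4 higher (0 to 1 lower) and the ubiquitin list 1 to 2 higher. The shares of all tested genes in these fits were not computed. Psma was at 1 without CM + 4OI replicate 1 and without CM replicate 3, Psmc at 3 without CM + 4OI replicate 2, and Psmd at 5 without CM + 4OI replicate 1 or 2 and without CM replicate 3. Over 63 proteasome and related genes and their alternatives, 961 fits kept direction and side of the threshold, 72 lost the call and 4 gained one. The log2 fold change changed sign in 29 fits of 12 genes, none of which was called as reported or in that fit. Under median-of-ratios scaling it was -0.02 for Psma6 and Psme4, -0.03 for Pomp, Psmb4, Psmd6 and Psmd9, -0.04 for Psmb1 and Psmb6, and -0.06 for Psmf1. Under TPM scaling it was -0.0 for Psmb1 and Psmb6 and -0.04 for Psmf1. Under quantile normalization it was -0.03 for Psmd9 and -0.05 for Psmf1. For Psmf1 it was -0.0 at pseudocounts of 0.1 and 0.5. Without replicate 2 of both groups it was 0.05 for Psmg4. Leaving out 1 library, it ranged from -0.01 to 0.06 for Psmb6, -0.09 to 0.08 for Psmd9, -0.13 to 0.17 for Psmf1, -0.05 to 0.05 for Psmg1, -0.12 to 0.04 for Psmg3 and -0.22 to 0.01 for Psmg4. The exact permutation test of the ratios cannot go below 0.1 with 3 libraries a group. Depth, estimated at 18.0 M fragments (M, mega) in the shallowest library, limits the precision of genes with low FPKM.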
